A study of Mus musculus with 2 samples.

Results

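Simple epithelial keratins and genes of epithelial cell junctions were examined in mouse embryonic stem cells (ESCs) with and without a T258A change in Sox2. The group held 10 genes, taken by name from a table of 24532 genes, and all 10 were found: the keratins Krt7, Krt8, Krt18 and Krt19, the claudins Cldn6 and Cldn7, the adhesion molecule Epcam, the splicing regulator Esrp1, the small GTPase Rab25 and the tight junction protein cingulin (Cgn). RNA sequencing (RNA-seq) compared 1 library of E14 cells, an established wild-type mouse ESC line kept on serum and LIF, with 1 library of E14-Sox2 TA/WT cells. The latter are a clone of E14 made with CRISPR/Cas9, with T258A on 1 Sox2 allele, which removes a site of O-GlcNAc, while the other allele is wild type. Such clones were selected and kept with 2i, inhibitors of Mek and Gsk3, and were used in the passages after its removal, so genotype, clone and culture history cannot be told apart.

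Keratins are the intermediate filament proteins of epithelial cells. A filament needs a type II keratin, such as Krt7 or Krt8, paired with a type I keratin, such as Krt18 or Krt19, and Krt8 with Krt18 is the pair that appears first in the embryo. Claudins seal the space between neighboring cells at the tight junction, which cingulin links to the actin cytoskeleton, whereas Epcam is a surface glycoprotein of epithelial and pluripotent cells. ESCs themselves have an epithelial character, with E-cadherin between cells, and simple keratins are well known from the trophoblast and the early endoderm.

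Because each genotype had 1 library, differences could not be set against replicates or tested. The E14 library held 60263536 reads in genes and the mutant library 44609228. Levels are given as transcript abundance scaled for length and depth (TPM), which allows genes of different length to be compared, and the 95% intervals given with them cover the counting of reads alone. Sox2 itself had 28936 reads in E14 and 14270 reads in the mutant (log2 ratio -0.44). The edit lies in the coding sequence and cannot be seen in gene counts. The 8 ESC markers had reads in both libraries, and 3 were higher and 5 lower in the mutant (median log2 ratio -0.28). Their summed TPM was 12109 in E14 and 9073 in the mutant, or 5232 and 4643 without Dppa5a. Pou5f1 had a TPM of 1725 and 1759 (log2 ratio 0.03), whereas Nanog was past 2-fold lower, with a TPM of 526.9 and 251.3 (-1.07). Krt18 and Rab25 were among the genes that the study named as putative targets partly from these libraries, so their direction is not independent evidence. The study also measured some of its putative targets by qPCR in these cells and reported that this bore out the RNA-seq for them. Its primer list includes Krt18, but its text does not name the targets measured. Krt8 was among the mesendoderm markers that it measured by qPCR in teratomas, and it reported mesendodermal genes as upregulated in those of the mutant.

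The start regions of the keratins and of Epcam are shown first, because these genes differed most between the libraries and Krt7 went the other way. Each window runs from 250 bases before to 50 bases after the annotated start site, in the direction of the gene (RefSeq, GRCm38, the build the submitters' notes name as mm10). Capitals mark the letters CACCTG or their reverse complement CAGGTG, the E-box bound by repressors of epithelial genes such as Snail and Zeb proteins. The windows are chr15:102004293-102004592 on the minus strand for Krt8, chr15:102027966-102028265 on the plus strand for Krt18, chr15:101412153-101412452 on the plus strand for Krt7 and chr17:87635729-87636028 on the plus strand for Epcam.
Krt8: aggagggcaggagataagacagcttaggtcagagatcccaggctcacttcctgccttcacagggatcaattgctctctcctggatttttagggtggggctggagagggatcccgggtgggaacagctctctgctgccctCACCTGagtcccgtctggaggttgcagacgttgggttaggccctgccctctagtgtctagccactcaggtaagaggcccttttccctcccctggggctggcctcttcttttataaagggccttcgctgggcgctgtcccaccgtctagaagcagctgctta
Krt18: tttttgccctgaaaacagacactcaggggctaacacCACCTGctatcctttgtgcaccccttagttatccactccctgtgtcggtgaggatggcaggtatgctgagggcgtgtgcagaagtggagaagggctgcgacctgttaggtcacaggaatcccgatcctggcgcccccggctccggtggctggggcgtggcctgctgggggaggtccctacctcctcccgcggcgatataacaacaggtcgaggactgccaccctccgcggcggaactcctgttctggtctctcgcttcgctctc
Krt7: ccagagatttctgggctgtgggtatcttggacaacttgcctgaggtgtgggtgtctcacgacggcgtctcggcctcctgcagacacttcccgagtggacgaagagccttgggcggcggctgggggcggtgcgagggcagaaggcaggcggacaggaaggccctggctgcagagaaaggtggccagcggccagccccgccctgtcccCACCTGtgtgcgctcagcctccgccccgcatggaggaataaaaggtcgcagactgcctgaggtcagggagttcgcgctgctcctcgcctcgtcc
Epcam: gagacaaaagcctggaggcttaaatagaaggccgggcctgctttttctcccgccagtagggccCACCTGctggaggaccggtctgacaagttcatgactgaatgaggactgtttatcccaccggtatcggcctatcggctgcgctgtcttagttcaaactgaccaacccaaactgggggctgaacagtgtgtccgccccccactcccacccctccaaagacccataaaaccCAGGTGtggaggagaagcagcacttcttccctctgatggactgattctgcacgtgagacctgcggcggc

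A start window was at hand for 8 of the 10 genes, all but Krt19 and Esrp1. CACCTG on either strand was found in 7 of the 8, namely Krt7, Krt8, Krt18, Cldn6, Cldn7, Epcam and Rab25, beside 22.6% of all 27025 genes with such a window. The match lay 111 bases before the start site in Krt8, 214 in Krt18 and 44 in Krt7, and Epcam held matches at 187 and 19 bases before it. Krt7, the gene that was lower in the mutant, thus held the letters as well. TATAAA, searched on the strand of the gene, was found in Krt8 alone among the 8 (9.77% of all genes). It began 1 base before the annotated start site and so lay across it. On either strand, AACCNGTT, a site of Grhl factors, was found in Rab25 and Cgn (2.35%), and CATTGT, a core Sox site, in none of the 8 (14.3%).

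The palindrome TGACGTCA, the cAMP response element, was found in the windows of Cldn6, Cldn7 and Rab25, 3 of the 8 genes, beside 2.03% of all genes. It was searched after the windows had been read. The 60 bases around it are shown with the palindrome in capitals, from chr17:23679299-23679358 (plus strand), chr11:69965357-69965416 (plus strand, the second of 2 annotated start windows of Cldn7) and chr3:88548331-88548390 (minus strand). It lay 40 bases before the start site of the window in Cldn6, 38 in Cldn7 and 85 in Rab25, and in Cldn6 and Cldn7 this start site is not the outermost end of the gene.
Cldn6: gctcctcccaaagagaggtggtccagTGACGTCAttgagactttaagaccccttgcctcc
Cldn7: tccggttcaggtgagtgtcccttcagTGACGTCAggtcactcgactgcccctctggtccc
Rab25: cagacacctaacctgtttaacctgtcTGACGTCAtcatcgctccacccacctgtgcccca

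By TPM, 9 of the 10 genes were higher in the mutant, beside 53.2% of the 13269 genes whose mean TPM reached 1, and 1, Krt7, was lower. In bulk RNA, more cells with a message and more message per cell cannot be told apart. Without a further filter, 5 of the 10 were more than 2-fold higher, beside 5.7% of all genes, and 1 more than 2-fold lower, beside 8%. A filter was then set, a TPM that reached 10 in either library, together with a threshold of 2-fold. Both were taken over from the study. The filter was passed by 8 of the 10 genes, of which Esrp1 did so only through the mutant, where it was higher. Krt7 and Rab25 stayed under it. Rab25, a putative target named by the study, was also under 2-fold here (1.86-fold). With these settings, the study's own counts past 2-fold differ from those found here. More than 2-fold higher were 5 of the 8 (Krt8, Krt18, Krt19, Epcam and Cgn), beside 4.17% of all 9094 genes past the filter. By FPKM, a second scale of the table, 3 of them were, without Krt18 (log2 ratio 0.98) and Cgn (0.89). More than 2-fold lower were 0 of the 8, beside 4.07% of all genes, so that 5 of the 8 were past 2-fold in either direction, beside 8.24%. Nearest to the threshold were Cgn just inside it (2.04-fold) and Cldn6 just outside it (1.80-fold).

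**Figure D1:**
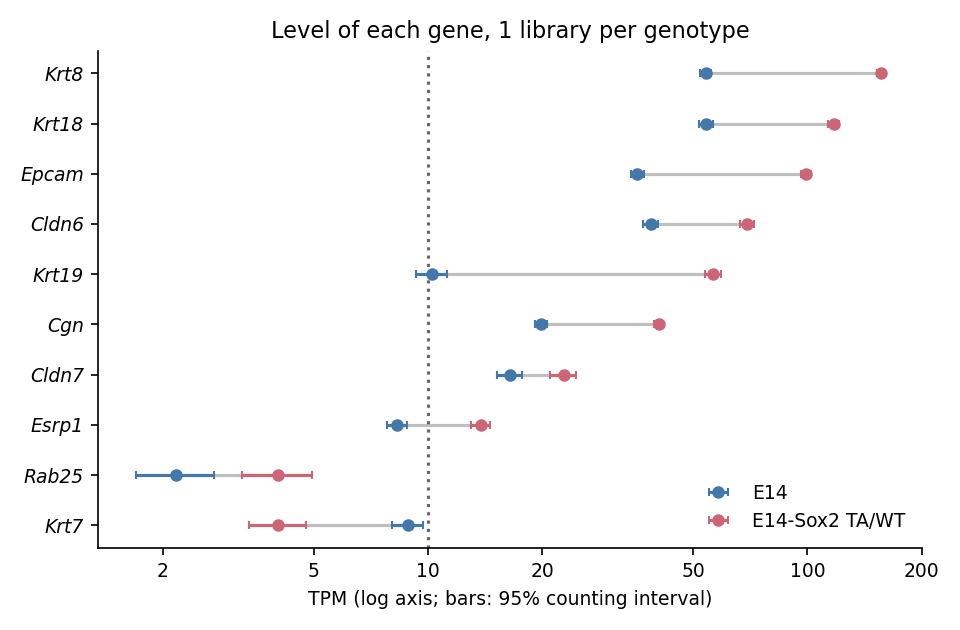
Level of each of the 10 genes in TPM (log axis) in E14 (blue) and E14-Sox2 TA/WT cells (red), with 95% counting intervals as bars and the filter of 10 TPM as a dotted line. Red lies to the right of blue for 9 genes and to the left for Krt7 alone.

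The order of the levels differed between the libraries. In E14, Krt18 (TPM 54.0, interval 51.9 to 56.2) and Krt8 (53.9, 52.0 to 55.8) were highest and could not be told apart within counting error. They were followed by Cldn6 (38.6, 36.9 to 40.4), Epcam (35.6, 34.2 to 37.1), Cgn (19.8), Cldn7 (16.4), Krt19 (10.2), Krt7 (8.84), Esrp1 (8.28) and Rab25 (2.17), and the intervals of Cldn6 and Epcam, of Krt19 and Krt7, and of Krt7 and Esrp1 overlapped. In E14-Sox2 TA/WT cells, Krt8 (156.0, 152.1 to 160.0) lay above Krt18 (117.5, 113.6 to 121.4), Epcam (99.1) above Cldn6 (69.4), and Krt19 (56.4) above Cgn (40.5). Cldn7 (22.8), Esrp1 (13.8), Rab25 (4.03) and Krt7 (4.03) followed, and the last 2 could not be told apart.

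Krt8 (Entrez gene 16691, chromosome 15, 101996711 to 102004342), the type II keratin of simple epithelia, had 3065 reads in E14 and 5944 in the mutant. It was 2.89-fold higher in the mutant (2.77 to 3.02), with a log2 ratio of 1.53. Krt18 (Entrez gene 16668, chromosome 15, 102028216 to 102032026), its type I partner, had 2382 and 3471 reads and was 2.18-fold higher (2.06 to 2.29). The partners are neighbors that point away from each other, with 23.9 kb between their annotated starts. Their TPM values were in a ratio of 0.998 in E14 and 1.33 in the mutant, so Krt8 was higher by more than its partner.

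Krt19 (Entrez gene 16669, chromosome 11, 100140810 to 100145926), a small type I keratin that lacks most of the tail domain, differed most of the 10 genes. It had 446 reads in E14 and 1636 in the mutant, a TPM of 10.2 and 56.4, and was 5.50-fold higher (4.95 to 6.12). Its TPM was 0.190 of that of Krt18 in E14 and 0.480 of it in the mutant. With both type I genes counted, Krt8 stood at 0.839 of the sum of Krt18 and Krt19 in E14 and at 0.897 of it in the mutant. With Krt7 added to Krt8, the ratio was 0.977 in E14 and 0.921 in the mutant, so its direction depended on whether Krt7 was counted.

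Krt7 (Entrez gene 110310, chromosome 15, 101412403 to 101427806), a type II keratin of ducts and of the trophoblast, had 442 reads in E14 and 135 in the mutant. Its TPM went from 8.84 to 4.03, which is 2.20-fold lower (log2 ratio -1.14, interval -1.42 to -0.85). The interval reached to less than a 2-fold difference, and the gene was under the TPM filter in both libraries. Krt8 exceeded Krt7 by 6.09 times in E14 and by 38.7 times in the mutant.

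Most other keratins of the table had few reads. Of 51 further keratin genes, 28 had reads in at least 1 library, and of these 23 had a lower TPM and 5 a higher TPM in the mutant. Of the 28, 12 had reads in E14 only, the deeper library, and 2 in the mutant only. More than 100 reads in a library were found for 4 of them, and the others had at most 46. Of these 24 others, 19 were lower, beside 60.1% of all 5272 genes with reads but at most 100 in either library. The 12 with reads in E14 only were among these 24, beside 25.9% of those 5272 genes. Krt42 was lower, with 755 and 96 reads (log2 ratio -2.40, -2.72 to -2.09), and was past the filter and 2-fold. It passed the filter only through E14 (TPM 15.5 and 2.93), where it was higher. Krt79, which lies between Krt7 and Krt8 on chromosome 15, had 171 and 4 reads (-4.84, -6.73 to -3.45). Krt17, a keratin of basal and stressed epithelia, had 300 and 135 reads (-0.57, -0.87 to -0.27), and Krt10, a keratin of differentiating epidermis, had 116 and 65 reads (-0.26, -0.72 to 0.19), not resolved from no difference at this depth. Krt5, the basal keratin of stratified epithelia, had 42 reads in E14 and 0 in the mutant, at least 10.4-fold lower after scaling to library size, with a floor of 3 reads. Krt14, its type I partner, had 5 and 11 reads (1.72, 0.07 to 3.59) and was among the 5 that were higher, with Krt34, Krt36, Krt74 and Krt222, none of which had more than 26 reads. Krt5 and these 5 were named after their values were seen.

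Over the whole family, the summed TPM of type II keratins was 68.2 in E14 and 160.4 in the mutant, and that of type I keratins was 90.5 and 183.5. Krt8, Krt18 and Krt19 together made up 74.4% of all keratin TPM in E14 and 95.9% in the mutant.

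**Figure D2:**
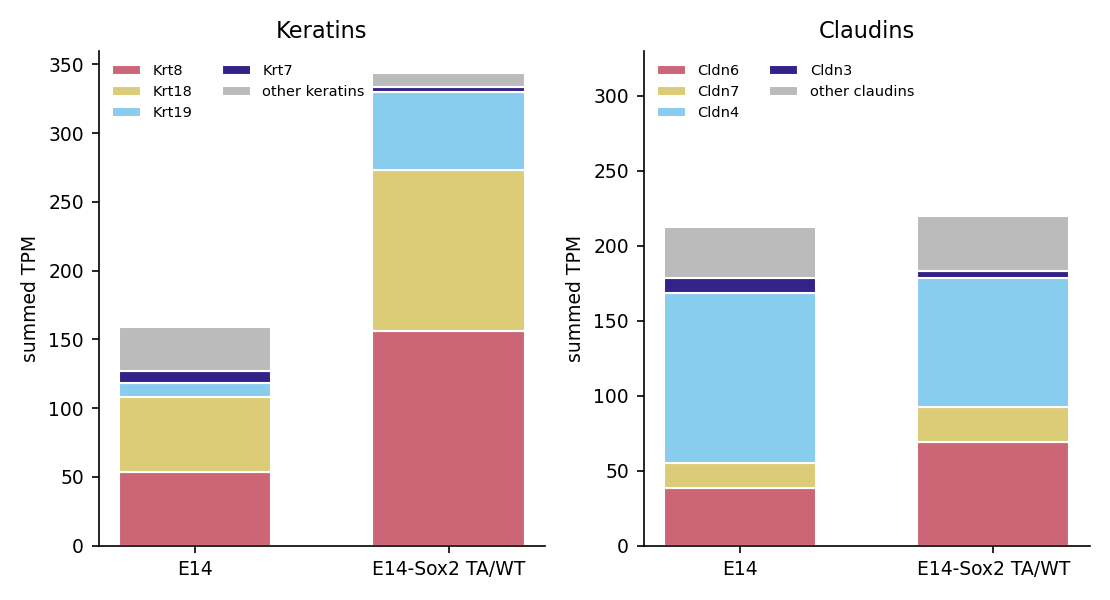
Summed TPM of keratins (left) and claudins (right) in E14 and E14-Sox2 TA/WT cells, stacked by gene, with bars starting at 0. The keratin total went from 158.8 to 343.9 and the Krt8, Krt18 and Krt19 blocks widened, whereas the claudin total stayed near level (212.4 and 220.1) with a larger Cldn6 block and a smaller Cldn4 block.

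The claudins differed less and not in one direction. Cldn6 (Entrez gene 54419, chromosome 17, 23679348 to 23682446), a claudin of embryonic and pluripotent epithelia, had 1832 reads in E14 and 2207 in the mutant. Its TPM was 38.6 and 69.4, which is 1.80-fold higher (1.69 to 1.91). Cldn7 (Entrez gene 53624, chromosome 11, 69964779 to 69967886), which binds Epcam at the basolateral membrane, had 675 and 631 reads, a TPM of 16.4 and 22.8, and was 1.39-fold higher (1.24 to 1.55). Its read count was lower in the mutant library, which held fewer reads in all.

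Of 5 other claudins that reached a mean TPM of 1, 2 were higher and 3 lower (median -0.27). Cldn4, the most abundant claudin in both libraries, had 6462 and 3291 reads and a TPM of 113.3 and 86.1 (log2 ratio -0.40, -0.46 to -0.34). Cldn3 had 412 and 129 reads (-1.10, -1.39 to -0.81) and was past the filter and 2-fold, but not with the trend on guanine and cytosine (GC) content and length removed (-0.69). It passed the filter only through E14 (TPM 10.3 and 4.83), where it was higher. Cldn5, a claudin of blood vessels, had 176 and 154 reads (0.38, 0.06 to 0.70) and had the highest ratio among the other claudins that reached a TPM of 1. Below that level, Cldn1 had 13 and 29 reads (1.83, 0.84 to 2.89). Cldn6 and Cldn7 held 25.9% of all claudin TPM in E14 and 41.9% in the mutant, whereas Cldn3 and Cldn4 held 58.2% and 41.3%. The ratio of Cldn4 to Cldn6 was 2.93 in E14 and 1.24 in the mutant.

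Epcam (Entrez gene 17075, chromosome 17, 87635979 to 87651127) had 2313 reads in E14 and 4312 in the mutant. Its TPM of 35.6 and 99.1 made it 2.78-fold higher (2.65 to 2.93), next to Krt8 in size.

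Cgn (Entrez gene 70737, chromosome 3, 94760069 to 94787725), the cytoplasmic plaque protein of the tight junction, had 3145 and 4300 reads and a TPM of 19.8 and 40.5. It was 2.04-fold higher, and its interval of 1.95 to 2.14 included 2-fold. A pseudogene named BC021767 matches Cgn over 1716 bases at 98.7% identity and had 212 and 293 reads, and summing the reads of both left the log2 ratio of Cgn at 1.03. The paralog Cgnl1 (paracingulin) had 3508 and 2894 reads (log2 ratio 0.29, 0.22 to 0.36), so Cgn stood at 1.22 times Cgnl1 in E14 and at 2.03 times in the mutant.

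Esrp1 (Entrez gene 207920, chromosome 4, 11331933 to 11386783), which drives epithelial patterns of alternative splicing, had 998 and 1112 reads and a TPM of 8.28 and 13.8. It was 1.66-fold higher (1.52 to 1.81). Its paralog Esrp2 had 368 and 381 reads and a log2 ratio of 0.63 (0.42 to 0.84), so Esrp1 exceeded Esrp2 by 1.90 times in E14 and 2.04 times in the mutant. Rab25 (Entrez gene 53868, chromosome 3, 88542029 to 88548279), a Rab11 family GTPase of epithelial recycling endosomes, was the least expressed of the 10 genes in E14, with 73 reads there and 91 in the mutant. Its TPM was 2.17 and 4.03, and the interval of the 1.86-fold difference ran from 1.35 to 2.57, so at this depth it was not resolved from a difference of more than 2-fold.

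The median log2 ratio of the 10 genes was 0.95, beside 0.04 for the 13269 genes of mean TPM 1 or more, both on the log2((TPM + 0.1) ratio) scale. The ratios of Krt19, Krt8, Epcam and Krt18 lay above those of 99.3%, 97.8%, 97.6% and 95.5% of all genes, that of Cldn7 above 79.5% and that of Krt7 above 6.76%. Removal of the trend of the ratio on GC content and transcript length made the log2 ratio of Krt8 1.82, of Krt18 1.43 and of Krt19 2.77. The direction of each of the 10 genes was the same under every scaling tried.

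**Figure D3:**
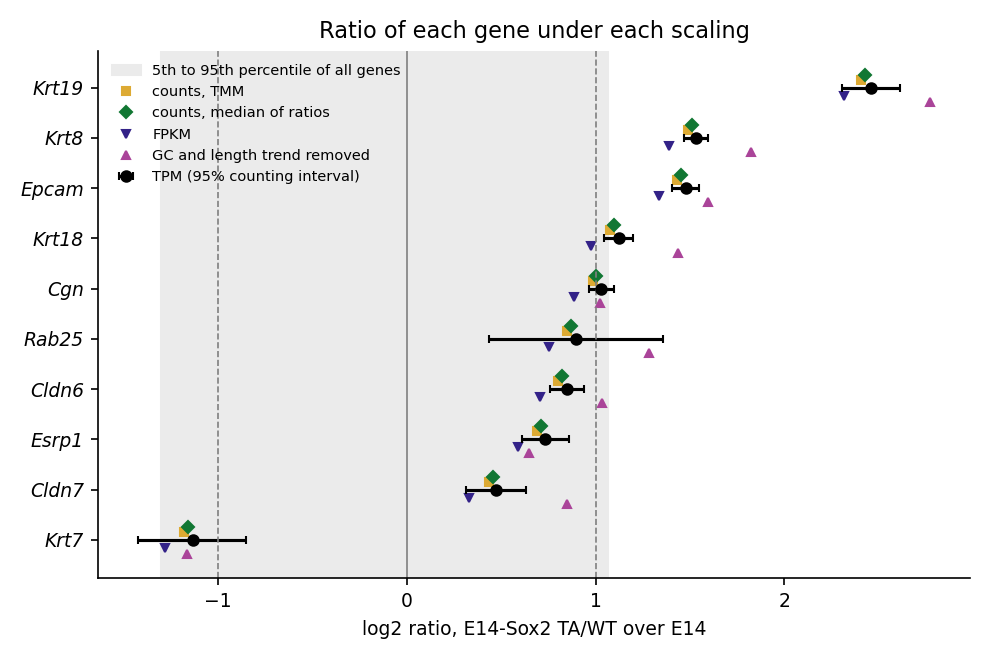
Log2 ratio (E14-Sox2 TA/WT over E14) of each gene from TPM with its 95% counting interval (black) and from read counts, FPKM and with the GC and length trend removed (colors), over the 5th to 95th percentile of all genes (grey) and lines at 2-fold. Krt19, Krt8, Epcam and Krt18 lie to the right of 1 by TPM, Cgn lies on the line, and Krt7 alone lies left of 0.

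Further genes of epithelial structure were taken from lists. Their counts past 2-fold stand beside 8.24% of all 9094 genes past the filter, in either direction. Lists this short cannot be set apart from that share by a count of 0. Of 24 genes of the tight junction other than claudins and cingulin, 23 reached a mean TPM of 1, and 18 of these were higher and 5 lower (median 0.35), and 0 of the 16 past the filter were past 2-fold. Their ratios ran from Ildr1 (-0.53), a protein of tricellular junctions, to the scaffold Mpdz, which had 453 and 825 reads (1.44, 1.27 to 1.61) under the filter. Of 11 adherens junction genes, 8 were higher and 3 lower (median 0.45), and 3 of the 10 past the filter were past 2-fold. These were Ctnnd1 (p120-catenin, 1.34), Mllt4 (afadin, 1.04) and Cdh1 (E-cadherin, 1.01), with TPM values for Cdh1 of 161.0 in E14 and 324.5 in the mutant. By FPKM, Mllt4 (0.89) and Cdh1 (0.87) were under 2-fold. Nectin4, with 525 and 130 reads, had the lowest ratio of that list (-1.43).

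The desmosome anchors keratin filaments to the membrane. Of 12 desmosome genes and keratin linkers that reached a mean TPM of 1, 8 were higher and 4 lower (median 0.72). Past 2-fold were 2 of the 7 past the filter, beside 8.24% of all genes. Dsp (desmoplakin), the protein that binds the filaments, had 1618 and 4480 reads and a TPM of 5.35 and 22.1 (log2 ratio 2.05, 1.96 to 2.13). It passed the filter only through the mutant, where it was higher. Pkp2 (plakophilin) had 2720 and 3654 reads (1.003, 0.931 to 1.075) and lay at the threshold within counting error. By FPKM, Pkp2 was under 2-fold (0.86). Pkp3, the lowest, had 840 and 415 reads (-0.44, -0.61 to -0.27).

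Genes near Rab25 and Esrp1 in function were not past 2-fold where they passed the filter, beside 8.24% of all genes past it. So few genes cannot be set apart from that share. The 13 genes of the Rab11 endosome and apical trafficking had a median of 0.12, from Rab17 (-0.83) to Rab8a (0.71), with 8 higher by TPM and 5 higher by FPKM, and 0 of the 9 past the filter were past 2-fold. The 6 further splicing regulators, 5 of them higher and 1 lower, had a median of 0.54, from Rbm47 (-0.05, -0.24 to 0.13) to Mbnl1 (0.98, 0.81 to 1.15), and 0 of the 3 past the filter were past 2-fold. In a list of transcription factors chosen for epithelia, not all of them particular to epithelia, 5 were higher and 4 lower (median 0.05, or -0.09 by FPKM). Of the 5 past the filter, 1 was more than 2-fold higher and 2 more than 2-fold lower, beside 8.24% of all genes either way. Tcf7l1, with 640 and 1508 reads (1.81), was higher and passed the filter only through the mutant (TPM 7.12 and 25.0). Tfap2c (4521 and 957 reads, -1.67) and Elf3 (2748 and 924 reads, -1.002, -1.11 to -0.89) were lower. With the trend on GC content and length removed, Elf3 was under 2-fold (-0.75). Grhl2, which activates claudin and cadherin genes, had 445 and 997 reads (1.74, 1.58 to 1.91) and a TPM of 2.85 and 9.55, just under the filter.

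**Figure D4:**
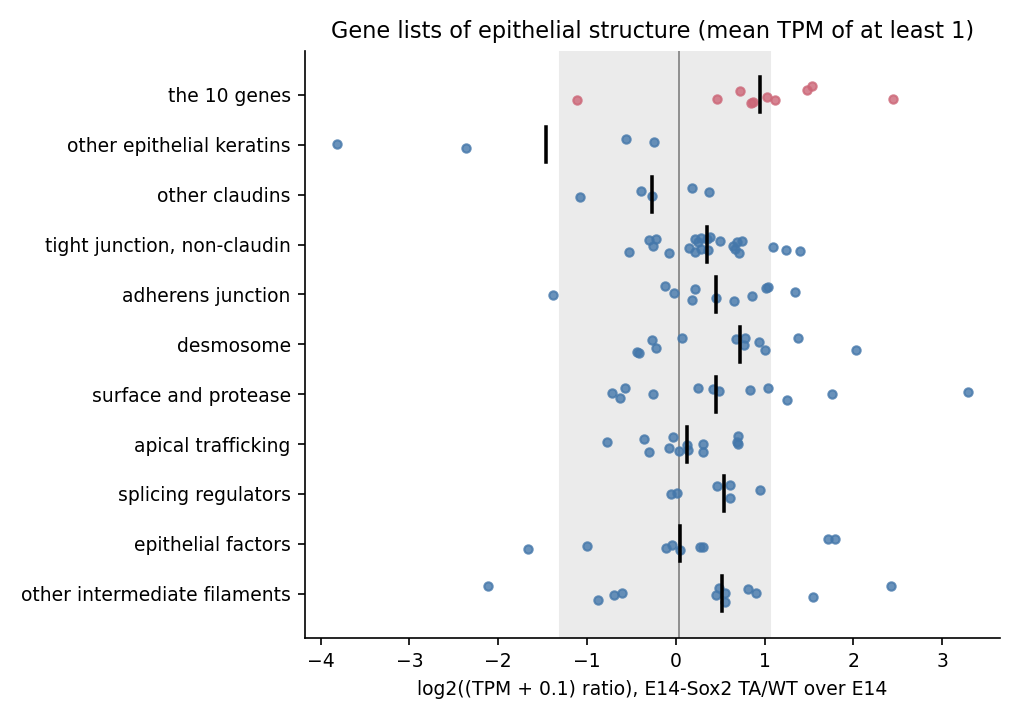
Log2((TPM + 0.1) ratio) of each gene with a mean TPM of at least 1, by list, with the 10 genes in red, other lists in blue, list medians as black bars and the 5th to 95th percentile of all genes in grey. The median is 0.95 for the 10 genes, 0.72 for the desmosome and -1.46 for other epithelial keratins, which are 4 genes.

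Simple keratins also mark other cell types, so markers of these were set beside the results. Of 11 trophoblast markers, 8 had reads in each library, and their summed TPM was 17.1 in E14 and 27.9 in the mutant. Cdx2, a trophoblast and mesoderm factor, had 32 and 554 reads (TPM 0.474 and 12.2), and without it the sum was 16.7 and 15.7. Of the 6 that reached a mean TPM of 1, 3 were higher and 3 lower (median -0.06). Beside Cdx2, the higher ones were Eomes (300 and 575 reads, log2 ratio 1.51) and Hand1 (156 and 117 reads, 0.16, -0.20 to 0.52). Gata2 (327 and 62 reads, -1.83), Ascl2 (335 and 83 reads, -1.45) and Tfap2a (142 and 77 reads, -0.31) were lower. Below a mean TPM of 1, Gata3 had 33 and 50 reads (1.19) and Plac1 had 4 and 8 (1.58). Elf5, Prl3d1 and Tpbpa had 0 reads in both. Of 12 markers of primitive and visceral endoderm, 10 had reads in each library, Ttr and Afp had 0 in both, and the summed TPM was 56.9 and 24.4. Of the 8 that reached a mean TPM of 1, 1 was higher and 7 lower (median -1.71), Gata4 among the latter (1607 and 274 reads). Of 10 fibroblast markers, 6 had reads in each library and the summed TPM was 50.1 and 22.5, or 10.0003 and 11.055 without Thy1 (2189 and 419 reads). Of the 4 that reached a mean TPM of 1, 2 were higher and 2 lower (median -0.53). Lower were Thy1 (log2 ratio -1.81) and Pdgfrb (1151 and 327 reads, -1.24). Higher were S100a4 (4 and 32 reads, 3.55) and Col1a1 (497 and 370 reads, 0.15, -0.05 to 0.35). Below a mean TPM of 1, Col3a1 (15 and 151 reads, 4.003) and Col1a2 (43 and 109 reads, 1.93) were higher. Lum, Dcn, Postn and Fap had 0 reads in both. The part of such cells in the keratin and junction genes was not tested.

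Because 1 clone was sequenced, the genes next to each of the 10 were listed as well, 3 on each side that reached a mean TPM of 1. Around Krt8 and Krt18 the neighbors were lower, from Krt79 to Eif4b (81435 and 51469 reads, log2 ratio -0.08), Tns2 (-0.31) and Spryd3 (-0.78), and chromosome 15 had a median of -0.20 over 547 genes. Apart from each other, Krt8 and Krt18 thus had only lower genes beside them, and whether position played a part was not tested. Around Epcam, the 5 neighbors reported here were higher, from Mcfd2 (0.25) through Ttc7 (0.69), Msh6 (0.96) and Fbxo11 (0.995) to Calm2 (9696 and 15437 reads, 1.25). Chromosome 17 had a median of 0.00 over 686 genes. Around Esrp1, all 6 neighbors were higher too (median 0.32). Around Cldn6, Cldn7, Rab25 and Cgn, the 6 neighbors of each went both ways. Beside Krt19, the keratins Krt42 and Krt17 were lower.

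Genes most like Krt8 and Krt18 in level were found from the distance in the plane of log2 TPM in both libraries, over 2 libraries only. Nearest to Krt8 were the chromatin remodeling gene Arid1a (TPM 51.1 and 143.2) and the Erk pathway inhibitors Dusp6 (53.8 and 134.2) and Spry4 (51.4 and 134.6). Nearest to Krt18 were the junction adaptor Ajuba (54.6 and 117.0) and Pipox (57.9 and 117.6).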

How the data were processed

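Polyadenylated RNA of 1 library per genotype was sequenced on an Illumina NovaSeq instrument. The submitters' processing notes name bcl2fastq 2.20.0, Trimmomatic, HISAT2 2.1.0 and StringTie 2.1.3b and the build mm10. The handling of strand and of reads with several positions, and how the whole-number counts were made, are not given in the sources used here, and if they were estimated from coverage the counting intervals are approximate. The authors deposited a table with 24532 genes that holds whole-number read counts without normalization, FPKM values scaled by transcript length and library size, and TPM values scaled to nearly the same sum in each library. At the 10 genes TPM was 1.94 times FPKM in E14 and 2.15 times in the mutant. No column of values was left out.

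Genes were selected by symbol, and the members and lists were chosen with earlier results of these data known. Named beside the 10 genes were Sox2, the extremes of each list among genes that reached a TPM of 1, list members past the filter and 2-fold, chromosomal neighbors, the 3 genes nearest to Krt8 and to Krt18, and paralogs, of which some are not reported here. Marker genes and keratins with few reads, and all paralogs, were named after their values were seen. Ratios of TPM (mutant over E14) were taken without a pseudocount, with 0.1 added for medians, and 95% intervals came from the read counts by the exact Clopper-Pearson method, with exact Poisson intervals for levels. They cover counting error only, because each genotype had 1 library. PCR copies of 1 molecule count as separate reads, so even for that error the intervals may be too narrow. A count of 0 was set against a floor of 3 reads (0.0498 CPM in E14 and 0.0673 in the mutant). The interval code was tested on simulated data. Alternatives were scaling by TMM (edgeR 4.0.16) and by size factors (DESeq2 1.42.0), centring, FPKM, pseudocounts, filters, fold thresholds and a correction for GC content and length (medians in 20 bins each, from GENCODE M21 transcripts matched for 99.0% of genes of mean TPM 1 or more). Copies were sought with blastn 2.17.0 at 95% identity over at least 300 bases. Besides BC021767, a pseudogene of Krt8, which the table does not list, matched over 941 bases. Positions and start windows came from RefSeq for GRCm38.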

Additional observations from a re-analysis of the deposited data

How the results depend on the processing

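Of 71 alternative values for the 10 genes, 0 changed sign, 59 stayed within the counting interval of the main value and 12 left it, with the FPKM ratio or with the trend on GC content and length removed. The count of genes more than 2-fold higher (5) was 3 by FPKM, which left Krt8, Krt19 and Epcam, and 1 at 3-fold. It was 4, without Cgn, by TMM, by centring, with a pseudocount of 1 and with the counting interval wholly past 2-fold. With the trend on GC content and length removed it was 6, with Cldn6 (1.03) added, and at 1.5-fold it was 7. The count more than 2-fold lower (0) was 1, Krt7, with the filter set at a TPM of 1 or 5 and without a filter. The median of the 10 genes (0.95) was 0.82 by FPKM and 1.16 with the trend removed. By FPKM the summed log2 ratio of type I keratins (1.02) was 0.88 and that of type II keratins (1.23) was 1.09, and that of all claudins (0.05) changed sign to -0.0919. The FPKM shift is the same for every gene, since 1 factor per library joins the scales, and the median of the table moved with it from 0.04 to -0.10. Summing the reads of BC021767 with Cgn was chosen after seeing the data. Depth limits Rab25, with 73 and 91 reads, and the keratins under 100 reads most. No paired analysis was possible because each genotype had 1 library, and for the same reason no library could be left out.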

Other observations

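Other intermediate filament genes and surface proteins were compared in the same way. Of 12 non-keratin filament genes that reached a mean TPM of 1, 8 were higher and 4 lower in E14-Sox2 TA/WT cells (median 0.52). Past 2-fold were 3 of the 10 past the filter, beside 8.24% of all genes. Nes, the filament gene of neural progenitors, had 1288 and 4677 reads (log2 ratio 2.44, 2.35 to 2.53), and Ina (internexin) had 713 and 1403 reads (1.56, 1.42 to 1.69). Nes passed the filter only through the mutant (TPM 6.67 and 36.2), where it was higher, and Ina just reached it in E14 (TPM 10.008). Prph (peripherin), a filament gene of peripheral neurons, was lower, with 2865 and 441 reads (-2.12, -2.27 to -1.98). Keratins were thus not the sole filament genes with large ratios in both directions.

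Of 12 epithelial surface proteins and members of the serine protease network around Epcam, 8 were higher and 4 lower (median 0.46). Past 2-fold were 0 of the 6 past the filter, beside 8.24% of all genes, a difference that 6 genes cannot resolve. Spint2, an inhibitor of membrane serine proteases, had the lowest ratio, with 10228 and 4147 reads (-0.72, -0.78 to -0.67).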
